A study of Homo sapiens with 4 samples.

Results

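Expression of CD9 and of 9 other tetraspanin genes was examined in SUM159 and MDA-MB-231, established human cell lines derived from triple-negative breast cancer, with and without induction of the microRNA miR-100. The members are CD9, CD63, CD81, CD82, CD151, TSPAN1, TSPAN4, TSPAN8, TSPAN13 and TSPAN15, which are 10 of 22465 named genes on the array. Each was read from the probesets whose platform annotation names that gene alone, and each of the 10 had 1 such probeset. CD9 was picked because its difference in induced MDA-MB-231 cells ranked highest after that of MIR100, and the others as tetraspanins over all 4 arrays. The values of CD9 are therefore a description. For CD9 no test is given of any contrast that holds the induced MDA-MB-231 array. Other genes were tested in such contrasts.

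Each line was profiled on 1 array per state, which gives 4 arrays and no replicate of any group. All 4 cultures carried the inducible miR-100 plasmid, delivered by lentivirus, and had been selected with puromycin. The induced cultures received a tetracycline-type drug, named Doxy in the sample titles, for 1 week, and the controls received none. No array of drug-treated cells without the plasmid was analysed here, so an effect of the drug and an effect of miR-100 cannot be told apart. The lines were grown in different media, with hydrocortisone and insulin for SUM159 alone, so line and medium cannot be told apart either. SUM159 is the name on the samples and is used here, although the series' design text writes SUM149.

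Tetraspanins are small proteins that cross the membrane several times and expose a short and a long extracellular loop. They bind each other and partner proteins such as integrins, immunoglobulin-superfamily proteins and membrane proteases, and so gather them into membrane microdomains. CD9, CD63 and CD81 are enriched in extracellular vesicles and are widely used as markers of them. In breast cancer cells the family is studied mostly for its part in adhesion, migration and vesicle release.

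The microRNA that was induced and the CD9 promoter are shown here, because the former is the agent compared and the latter belongs to the member that the results turn on. Mature miR-100 lies at chr11:122152275-122152296 on the minus strand of GRCh38.p14, per RefSeq, and its seed, bases 2 to 8, is in capitals.
hsa-miR-100-5p: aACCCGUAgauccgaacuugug
RefSeq lists 4 promoter windows for CD9 on chromosome 12, each of 300 bases, from 250 before to 50 after a start site. The window printed, chr12:6200150-6200449 on the plus strand of GRCh38.p14, has the most matches to the GC box letters GGGCGG or, on the other strand, CCGCCC. It holds 6 matches, in capitals, of which a pair lies end to end.
CD9 promoter: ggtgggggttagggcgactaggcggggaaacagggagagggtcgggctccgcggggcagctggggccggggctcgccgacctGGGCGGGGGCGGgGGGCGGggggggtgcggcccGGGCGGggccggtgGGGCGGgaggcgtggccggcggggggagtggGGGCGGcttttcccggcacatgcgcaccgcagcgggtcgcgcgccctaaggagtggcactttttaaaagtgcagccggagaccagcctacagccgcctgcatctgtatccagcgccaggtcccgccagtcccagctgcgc
Of all 35116 promoter windows in the table, 44.95% hold at least 1 match, and 2.86% hold 6 or more. Another window of CD9 holds 3 matches and the other two hold 0. The array signal does not tell which start site was used. Windows were listed for 8 of the 10 members, and 15 of their 23 windows hold a match; TSPAN1 has 0.

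The labels were checked before the members were compared. On the log2 scale the MIR100 probeset read 6.56 without and 18.18 with the drug in SUM159, and 8.11 and 17.29 in MDA-MB-231 cells. Vimentin (VIM) lay between 15.20 and 16.23 and keratin 8 (KRT8) between 11.84 and 13.37 on the 4 arrays, whereas the epithelial cadherin gene CDH1 lay at 3.77 to 4.03 and the hormone receptor genes ESR1 and PGR at 2.98 to 3.68. Other markers of the same lists differed between the lines: N-cadherin (CDH2) was at 12.93 and 13.00 in SUM159 against 4.54 and 4.45 in the other line, and keratin 19 (KRT19) at 4.92 and 4.96 against 9.69 and 9.52. Genes are called kept where their mean log2 signal reached 4.035, the median of all probesets, which held for 14418 genes. Below that cutoff, differences between induced and control arrays spread by 0.19 in SUM159 and by 0.18 in MDA-MB-231 (an SD taken from the median absolute deviation). They serve as the measure of array noise here, and they come from dim probesets. In bulk samples, fewer cells with a transcript and less of it per cell cannot be told apart. Of the markers of other cell types, the leukocyte gene PTPRC and the endothelial genes PECAM1, VWF and CDH5 lay at 2.93 to 4.24, CD3E at 4.16 to 4.56, PDGFRA at 3.68 to 4.40 and COL1A1 at 4.89 to 6.87. The macrophage and lysosome gene CD68 was bright, at 10.50 and 11.12 in SUM159 and 13.13 and 13.12 in MDA-MB-231 (without, then with the drug).

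CD9, which encodes a tetraspanin known for its role in gamete fusion and for binding integrins and the precursor of the growth factor HB-EGF, had log2 signals of 10.62 in control and 11.95 in induced MDA-MB-231 cells. In SUM159 cells it was 8.35 without and 8.86 with the drug. The induced array was the higher one in each line, and both MDA-MB-231 arrays lay above both SUM159 arrays. The difference was 1.33 log2 units in MDA-MB-231, or 2.51-fold, and 0.51 in SUM159, or 1.42-fold. In MDA-MB-231 it ranked 2 of the 14418 kept genes, after MIR100. The next gene down, OSTF1, was higher by 1.12 and is the gene just outside the choice. In SUM159 the rank was 800, and 10.1% of kept genes had a difference at least as large in either direction. The difference was thus larger by 0.82 in MDA-MB-231. CD9 was chosen on its difference in that line, so nothing is read from this gap, and with 1 array per state it cannot be tested.

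**Figure D1:**
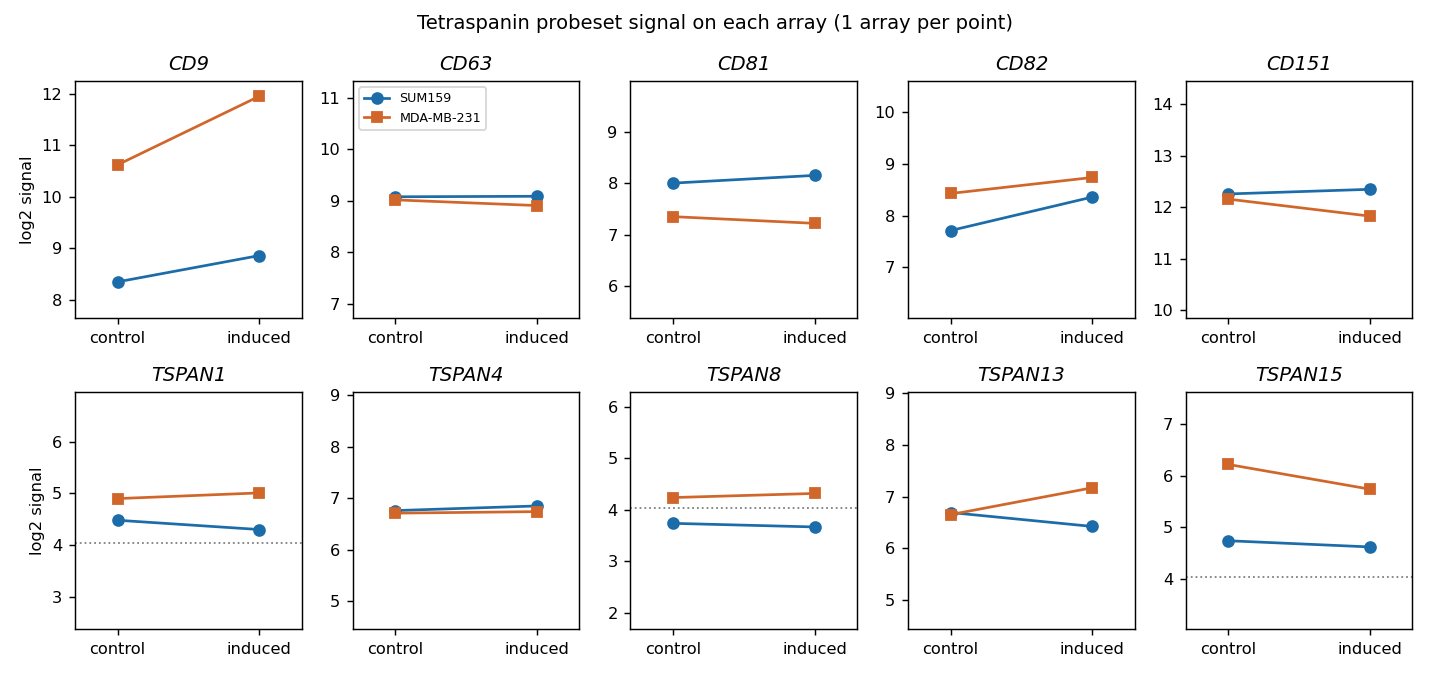
Log2 signal (vertical axis, the same span in each panel) of the 10 tetraspanin probesets in control and induced cells of SUM159 (circles) and MDA-MB-231 (squares), 1 array per point, with the signal cutoff as a dotted line where it falls in range. CD9 goes from 10.62 to 11.95 in MDA-MB-231; levels of different probesets are not comparable with each other.

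CD63, CD81, CD82 and CD151 are the other members with CD names. CD63, a tetraspanin of lysosomes and multivesicular bodies, had nearly the same log2 signal on every array, with 9.08 in control and 9.09 in induced SUM159 cells and 9.02 and 8.91 in MDA-MB-231 cells. Its differences of 0.01 and -0.11 lay within the spread of dim probesets. CD81, an entry factor for hepatitis C virus, had signals of 8.0 and 8.15 in SUM159 and 7.35 and 7.22 in MDA-MB-231. Its differences, 0.15 and -0.13, also lay within that spread, while both SUM159 arrays were above both MDA-MB-231 arrays.

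CD82, known as the metastasis suppressor KAI1, was the member with the highest difference in SUM159. On the log2 scale it read 7.71 without and 8.36 with the drug in SUM159 cells, and 8.43 and 8.74 in MDA-MB-231 cells. The induced array was again the higher one in each line, and the SUM159 arrays lay below the MDA-MB-231 arrays. The differences were 0.65, or 1.57-fold, and 0.31, or 1.24-fold; 5.29% of kept genes in SUM159 and 18.3% in MDA-MB-231 had a difference at least as large. CD151, the main tetraspanin partner of the laminin-binding integrins, had signals of 12.26 and 12.35 in SUM159 and 12.16 and 11.83 in MDA-MB-231. It was lower by 0.33 in induced MDA-MB-231 cells and stood at 0.09 in SUM159, and the induced MDA-MB-231 array was the lowest of the 4.

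Of the 5 TSPAN members, 0 were past 1.5-fold in either line. TSPAN15, which binds the membrane protease ADAM10 and is a member of the TspanC8 subgroup that escorts this protease, had log2 signals of 6.22 in control and 5.74 in induced MDA-MB-231 cells, against 4.74 and 4.62 in SUM159 cells. Its differences of -0.48 and -0.12 were both below 0, and both MDA-MB-231 arrays lay above both SUM159 arrays. TSPAN13 read 6.69 without and 6.42 with the drug in SUM159 cells, and 6.65 and 7.17 in MDA-MB-231 cells. The controls of the lines were thus alike for TSPAN13, and the differences pointed opposite ways, at -0.27 and 0.52.

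TSPAN4, known from the retraction-fibre organelles called migrasomes, had signals of 6.76 and 6.85 in SUM159 against 6.71 and 6.74 in MDA-MB-231, the narrowest range of the 10 members. TSPAN1 had signals of 4.48 and 4.30 in SUM159 and 4.90 and 5.01 in MDA-MB-231, with differences of -0.18 and 0.11. TSPAN8, studied mainly in digestive tract tumours, had signals of 3.74 and 3.67 in SUM159 and 4.24 and 4.32 in MDA-MB-231. Its mean lay below the cutoff, so TSPAN8 was the 1 member not kept, and a lower level in SUM159 could not have been seen. The differences of TSPAN1, TSPAN4 and TSPAN8 lay within the spread of dim probesets in both lines.

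**Figure D2:**
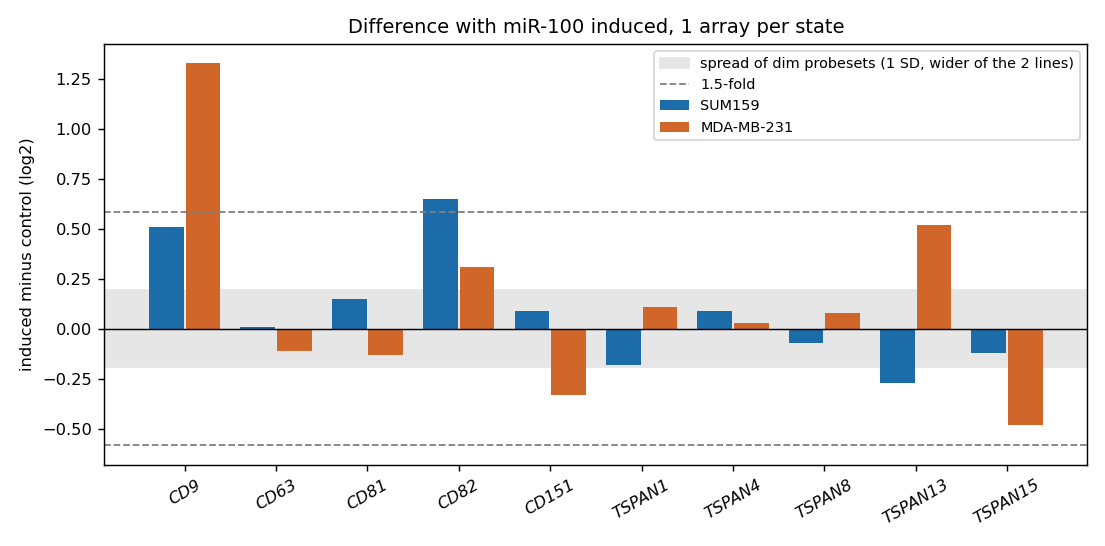
Induced minus control difference in log2 signal (vertical axis) of each tetraspanin gene in SUM159 and MDA-MB-231, from 1 array per state and hence without error bars. CD9 in MDA-MB-231 (1.33) and CD82 in SUM159 (0.65) pass the dashed 1.5-fold lines; the grey band is the spread of dim probesets.

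Of the 9 kept members, 1, CD82, was at or past 1.5-fold (0.585 log2 units) in induced SUM159 cells, where 6.95% of all kept genes were (3.95% higher and 3% lower). The count was again 1 of 9, CD9, in MDA-MB-231, where 2.48% of kept genes were past that fold, 1.69% higher and 0.784% lower; CD9 was chosen on this contrast, so nothing is read from the count. Both were higher. The background split of SUM159, 570 higher against 432 lower, became 471 against 514 by quantile scaling and 799 against 316 by centring. The members' median difference over all 10 was 0.05 for SUM159 and 0.06 for MDA-MB-231, where the medians over all 22465 named genes were -0.03 and -0.01. With limma over both lines, with cell line as a block, 0 of the 8 kept members other than CD9 passed a Benjamini-Hochberg adjusted p of 0.05, where 0% of the 14418 kept genes did. An unadjusted p under 0.05 was found for 1 of these 8, CD82, and for 556 genes in all (3.86%). That fit has 1 residual degree of freedom, and its residual measures the gap between the responses of the lines, not a spread of replicates. MIR100 itself, with a mean difference of 10.40, had a limma adjusted p of 0.918 in that fit. The count of 0 therefore does not show that the members did not respond. For CD82 the mean difference over the 2 lines was 0.48 ± 0.15 (SE of limma, which draws on all kept genes). Its limma adjusted p was 0.918.

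The tetraspanin family was then viewed as a whole, from a list of 33 human genes, each of which had a probeset of its own. Of these, 24 were kept and 9 were not, among the latter the leukocyte tetraspanins CD37 and CD53 and the photoreceptor tetraspanin PRPH2. Past 1.5-fold were CD82 and TSPAN9 in SUM159 and CD9 and TSPAN6 in MDA-MB-231, each of them higher. That is 2 of 24 (8.33%) in each line, against 6.95% of all kept genes in SUM159 and 2.48% in MDA-MB-231; CD9 was chosen on the latter contrast, and without it the count there was 1 of 23 (4.35%). TSPAN9, a tetraspanin studied in platelets, had log2 signals of 6.33 (control) and 6.92 (induced) in SUM159, and of 8.18 and 8.14 in MDA-MB-231 cells. Its difference of 0.59 lay at the threshold, and it was 0.56 after quantile normalization, which left 1 gene, CD82, past 1.5-fold in SUM159. TSPAN6 had signals of 5.68 and 5.62 in SUM159 and 10.16 and 10.92 in MDA-MB-231, and was higher by 0.76 in the latter. The median difference over the 33 genes was -0.07 in SUM159 and 0.04 in MDA-MB-231. Among the 24 kept genes, 3 were higher in both lines, namely CD9, CD82 and TSPAN4, and 3 lower in both. These shares, 12.5% each, compare with 25.2% of all kept genes higher and 23.7% lower in both. Without CD9, 2 of 23 (8.70%) were higher and 3 (13.0%) lower. The signs depended on scaling: after median centring TSPAN3, TSPAN5 and TSPAN6 were also higher in both lines, while TSPAN7 and TSPAN15 stayed lower. Of the 24 genes, 13 lay within the spread of dim probesets in both lines, so nothing is read from these shares. These lists were chosen with results of the data known.

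**Figure D3:**
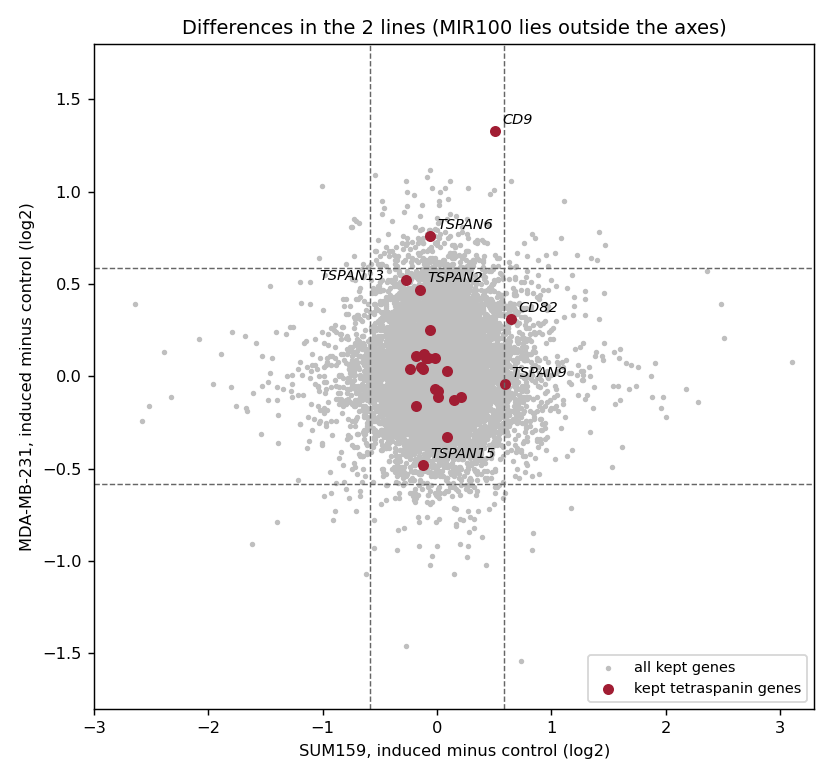
Induced minus control difference in log2 signal in SUM159 (horizontal axis) and MDA-MB-231 (vertical axis) for 14418 kept genes (grey) and the 24 kept tetraspanin genes (red), with 1.5-fold as dashed lines. CD9 (0.51 and 1.33) stands at the upper edge of the MDA-MB-231 differences, and most other tetraspanins lie near the centre.

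The lines themselves were compared next. In limma with treatment as a block, which compares the 2 arrays of SUM159 with the 2 of MDA-MB-231, 3 of the 8 kept members other than CD9 (37.5%) passed an adjusted p of 0.05, against 44.6% of all kept genes. The share among the members is thus near the background. The line fit also has 1 residual degree of freedom. Its SE and p draw on the gap between the line differences of control and induced cells, not on replicates. SUM159 minus MDA-MB-231 was -2.27 for CD9 in controls and -3.09 in induced cells, with a mean of -2.68, or 6.41-fold. The induced value and the mean use the array on which CD9 was chosen and are given with no test; the control value does not use it.

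TSPAN15 was lower in SUM159 by limma, at -1.30 ± 0.15 (SE, adjusted p = 0.0085), or 2.46-fold, and it was called without each of the 4 arrays in turn. CD81 was higher in SUM159, at 0.79 ± 0.14 (limma adjusted p = 0.0202), or 1.73-fold; without the induced MDA-MB-231 array the limma adjusted p was 0.0607. TSPAN1 stood at -0.56 ± 0.14 (limma adjusted p = 0.0436), a call that was lost without the induced SUM159 array or either MDA-MB-231 array, at limma adjusted p from 0.0692 to 0.117, and at 0.0654 when dim genes were not filtered. CD82 was at -0.55 ± 0.15 and missed the threshold (limma adjusted p = 0.0524). CD63 (0.12), TSPAN4 (0.08), CD151 (0.31) and TSPAN13 (-0.35) did not pass, with limma adjusted p from 0.204 to 0.622, which does not show that they were alike in the lines. The differences of CD151 and TSPAN13 between lines were 0.10 and 0.04 in controls and 0.52 and -0.75 in induced cells.

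Over the family other than CD9, 13 of the 23 kept genes were called between the lines (56.5%), 9 of them higher in MDA-MB-231, where 23.8% of all kept genes were, and 4 higher in SUM159, where 20.8% were. TSPAN6 had the widest gap, at -4.89 ± 0.24 (limma adjusted p = 0.00269). Of the 6 TspanC8 genes, TSPAN10 and TSPAN33 were not kept. All 4 kept TspanC8 genes were called, each higher in MDA-MB-231, against 23.8% of all kept genes. TSPAN14, one of these ADAM10 partners, had signals of 6.87 and 7.08 in SUM159 and 10.13 and 10.02 in MDA-MB-231. TSPAN5 had 4.32 and 4.30 in SUM159, close to the cutoff, and 7.34 and 7.44 in MDA-MB-231. The line differences were -3.10 for TSPAN14 and -3.08 for TSPAN5, followed by TSPAN15 and by TSPAN17 (-0.61). ADAM10 itself stood at -0.96 between the lines (limma adjusted p = 0.00967). TSPAN9 (-1.53) and TSPAN2 (-1.28) were further genes higher in MDA-MB-231. For TSPAN2 the SUM159 signals, 4.29 and 4.14, were also close to the cutoff. TSPAN12, a co-receptor in Norrin signalling, passed the signal filter through MDA-MB-231 alone, with 4.82 and 4.86 there and 4.0 and 3.88, below the cutoff, in the other line, so its difference has no exact size. Without TSPAN12 the counts were 12 of 22 genes (54.5%), 8 of them higher in MDA-MB-231. TSPAN31 (1.56), TSPAN7 (0.86) and TSPAN3 (0.55, limma adjusted p = 0.0496) were higher in SUM159 with CD81. For TSPAN7 the MDA-MB-231 signals, 4.30 and 4.14, were close to the cutoff.

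**Figure D4:**
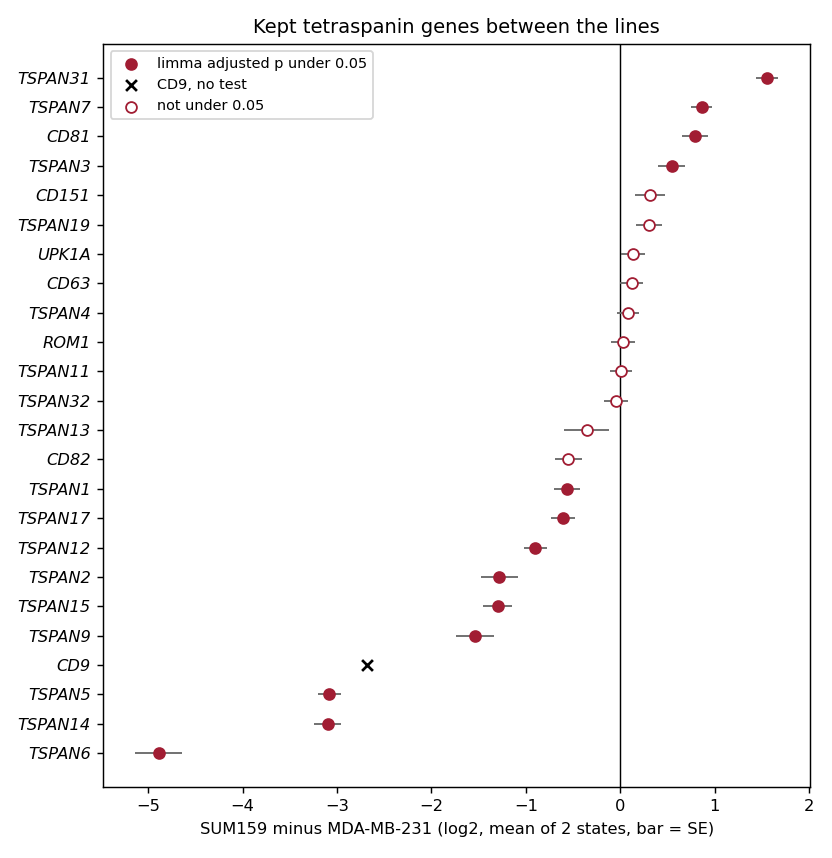
SUM159 minus MDA-MB-231 difference in log2 signal (horizontal axis, mean of control and induced, bars are the SE of limma) for the 24 kept tetraspanin genes. Filled points pass a limma adjusted p of 0.05, and the cross is CD9, drawn without a test; the TSPAN12 point rests on SUM159 values below the cutoff; TSPAN6 (-4.89), TSPAN14 (-3.10), TSPAN5 (-3.08) and CD9 (-2.68) are farthest toward MDA-MB-231.

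The membrane partners of tetraspanins were given by a list of 16 genes, of which 15 had a probeset of their own and 13 were kept. In SUM159, 3 genes were higher past 1.5-fold and 2 lower, while 0 passed it in MDA-MB-231. That is 38.5% of the 13 in the former, where 6.95% of all kept genes were past it, and 0 in the latter, where 2.48% were. With the mean of all probesets of a gene the count in SUM159 was 4, with 2 higher and 2 lower. ITGB4, the integrin beta subunit of hemidesmosomes and a CD151 partner, had log2 signals of 9.49 without and 7.53 with the drug in SUM159, and of 7.76 and 7.72 in MDA-MB-231 cells. ITGA3, the alpha subunit that CD151 binds most tightly, had signals of 12.07 and 13.11 in SUM159 and 13.67 and 13.51 in MDA-MB-231. The differences of ITGB4 and ITGA3 were thus -1.96 and 1.04 with SUM159, against -0.04 and -0.16 with MDA-MB-231.

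HBEGF, whose membrane-bound product binds CD9, had signals of 6.55 and 7.54 in SUM159, higher by 0.99, and of 11.02 and 10.89 in MDA-MB-231. CD44, the hyaluronan receptor, was higher by 0.89 in SUM159 and by 0.09 in MDA-MB-231 on its brighter probeset, but the mean of its 2 probesets gave 0.38 and -0.22, so the probesets disagree. The fifth gene past 1.5-fold was the tight junction gene CLDN1 (-0.83), named because the count is 5 and not by the rule for named genes. The median difference of the 15 partner genes was 0.04 for SUM159 and -0.04 for MDA-MB-231. The CD9 partners of the immunoglobulin superfamily, IGSF8 and PTGFRN, gave -0.05 and -0.34 with SUM159 and -0.05 and -0.14 with MDA-MB-231, and were also named outside the rule.

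The machinery of multivesicular bodies and exosomes, the vesicles that carry CD9, CD63 and CD81, was given by 23 genes, of which 22 had a probeset of their own and 21 were kept. Past 1.5-fold, SUM159 had 2 genes higher and 1 lower, while MDA-MB-231 had 2 higher and 0 lower, or 14.3% and 9.52% of the 21 against 6.95% and 2.48% of all kept genes. The split depended on scaling: quantile normalization gave 0 higher and 2 lower in SUM159 and 2 and 1 in MDA-MB-231, and centring gave 3 and 0 in the latter. RAB27B, a small GTPase that docks multivesicular bodies at the plasma membrane, had signals of 7.56 without and 6.45 with the drug in SUM159, and of 10.39 and 10.78 in MDA-MB-231 cells. RAB31 had 13.65 and 13.91 in SUM159 and 11.89 and 12.66 in MDA-MB-231, a difference of 0.77 in the latter. RAB11A, of recycling endosomes, stood at 0.26 and 0.68, and SDCBP, which encodes the vesicle adaptor syntenin, at 0.64 and 0.29 (SUM159, then MDA-MB-231). The other gene past 1.5-fold in SUM159 was SDC4 (0.63), a syntenin-binding proteoglycan, named outside the rule. The list's median difference over 22 genes was 0.07 in SUM159 and 0.16 in MDA-MB-231. Limma over both lines called 0 genes of the family other than CD9, of the partners and of the exosome genes, as it did over all 14418 kept genes. An unadjusted limma p under 0.05 was found for 1 of the 23 family genes other than CD9 and 0 of 13 partners. It was found for 5 of 21 exosome genes (23.8%), against 3.86% of all kept genes. Of those 5, SDCBP, RAB31 and RAB11A were higher and CHMP4C and FLOT2 lower, the last pair named outside the rule.

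**Figure D5:**
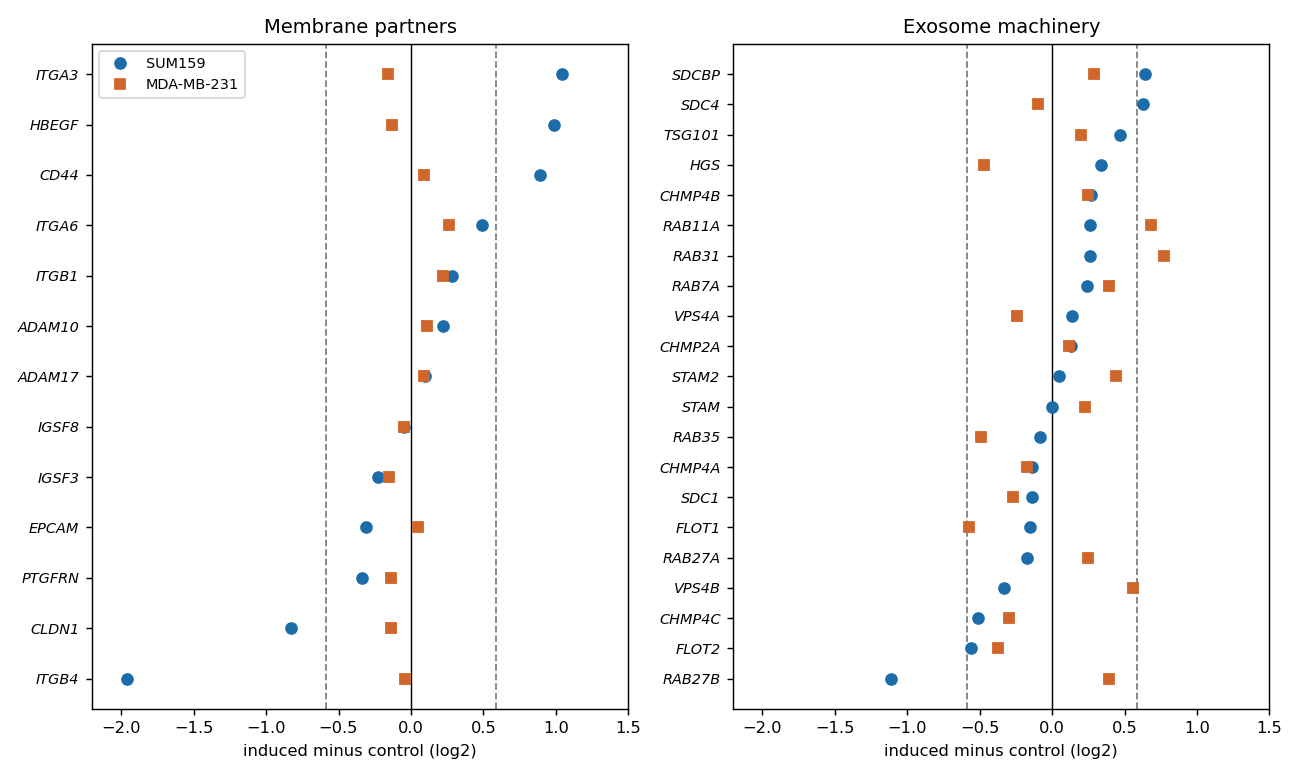
Induced minus control difference in log2 signal (horizontal axis) of the 13 kept membrane partner genes (left) and the 21 kept exosome and multivesicular body genes (right) in SUM159 (circles) and MDA-MB-231 (squares), 1 array per state, with 1.5-fold as dashed lines. The partner genes past the lines are SUM159 points, among them ITGB4 (-1.96) and ITGA3 (1.04).

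The L6 proteins resemble tetraspanins in topology but form a separate family. Of 6 genes listed, 2 were kept. TM4SF1, the L6 antigen, had log2 signals of 8.23 and 8.22 in SUM159 and 12.17 and 12.78 in MDA-MB-231, higher by 0.61 in induced cells of the latter. The differences of TM4SF19 were -0.46 and -0.18 (SUM159, then MDA-MB-231). TM4SF1 shared with CD9 and TSPAN6 a higher level in MDA-MB-231 and a difference past 1.5-fold there. After quantile normalization the difference of TM4SF1 was 0.57, under 1.5-fold, while those of CD9 (1.255) and TSPAN6 (0.715) stayed past it.

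The genes whose 4 values ran most like those of CD9 were found by the Euclidean distance between the 4 log2 values, each gene centred on its own mean, among the 14418 kept genes. HMGB3, which encodes a chromatin protein, was nearest, at 0.41 log2 units, with signals of 5.54 and 5.99 in SUM159 and 8.22 and 9.04 in MDA-MB-231. It was followed by HLA-DRB1 (0.47), the antisense gene TLR8-AS1 (0.55), the adducin gene ADD3 (0.58) and the zinc finger gene ZNF737 (0.61). Their differences in MDA-MB-231 lay between 0.60 and 1.02, and in SUM159 between -0.04 and 0.53. HLA-DRB1 has near-identical paralogs and 2 probesets, and the mean of both gave 0.54 in MDA-MB-231 in place of 1.02. The likeness rests on 4 arrays and mostly on the difference between the lines.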

How the data were processed

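Transcripts were profiled on 4 Affymetrix arrays. The table that the authors deposited gives a log2 signal for each probeset on each array, made with Affymetrix Expression Console and Transcriptome Analysis Console per the submitters' processing notes. Neither versions nor the summarisation and normalization steps are stated in the sources used. Array medians were 4.00 to 4.07, and no further scaling was applied. Of 70523 probesets, 23781 had exactly 1 gene symbol, 1543 several and 45199 none; only the former were used, with the brightest probeset per gene. Gene IDs matched RefSeq (GRCh38.p14) for 21497 of 21545 probesets, and 0 symbols changed. Genes with a mean log2 signal under 4.035 were left out of fits.

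Differences within a line have no test. Limma 3.58.1 (R 4.3.3; lmFit, eBayes) was fitted on all 14418 kept genes, with two-sided p adjusted by Benjamini-Hochberg; n is 2 arrays per line or state, and the labels do not say whether arrays came from separate cultures. The cell line pairs control with induced arrays and is the block in the induction fit. The fits were tested on simulated data with 200 genes changed by a known size. Of genes changed by 2-fold or 4-fold, 0% were recovered in either fit. At 16-fold, 59.5% were recovered between lines and 60.1% with induction. In the data the line fit called 44.6% of kept genes, so the simulated shares do not carry over to it.

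Members and lists were chosen with earlier results of these data known. Named genes are the members, other tetraspanins past 1.5-fold or called between lines, up to 4 genes per further list, and the 5 genes nearest CD9. Genes without a probeset of their own were not analysed here. Alternatives were quantile normalization, median centring, the mean of probesets, no signal filter or the 75th percentile, 2-fold, fits without the block, an intensity trend and leaving out each array.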

Additional observations from a re-analysis of the deposited data

Results flagged for a closer look

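Among the listed tetraspanin, partner, exosome and L6 genes, TSPAN13, RAB27B, VPS4B and HGS pointed opposite ways in the lines, each by more than the spread of dim probesets in that line. TSPAN13 stood at -0.27 for SUM159 and 0.52 for MDA-MB-231, 0.79 apart. RAB27B stood at -1.11 and 0.39, 1.5 apart. VPS4B and HGS, both of the multivesicular body machinery and named outside the rule, stood at -0.33 and 0.56 (MDA-MB-231 minus SUM159 0.89) and at 0.34 and -0.47 (-0.81). With 1 array per state, none of the 4 gaps was tested. Genes whose opposite differences lay within that spread in either line, such as CD81 and CD151, were passed over.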

How the results depend on the processing

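The difference of CD9 was 1.25 to 1.36 in MDA-MB-231 and 0.47 to 0.58 in SUM159 over quantile normalization, median centring and the mean of probesets. Of 210 such values for the named genes, 207 moved by less than the spread of dim probesets and 0 of those past 1.5-fold changed sign; those of CD44 in both lines and of HLA-DRB1 in MDA-MB-231 moved further. At 2-fold, 0 members were past the threshold in SUM159, and CD9 alone was past it in MDA-MB-231. The family then had 0 genes past it in SUM159 against 1 in MDA-MB-231, the partners 2 in SUM159, and the exosome genes 1 in SUM159 and 0 in MDA-MB-231. Quantile normalization left 1 family gene past 1.5-fold in SUM159 and turned the exosome split there from 2 higher and 1 lower to 0 and 2. Over all kept genes, 570 were higher and 432 lower in SUM159, against 471 and 514 after quantile normalization and 799 and 316 after centring; for MDA-MB-231 these counts were 244 and 113, then 201 and 130, then 310 and 88.

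Without a signal filter TSPAN8 was fitted and called between the lines, while TSPAN1 was not. The induction settings included the fit with no replicate block, in which the cell line was left out. Limma called 0 of the members other than CD9 in each of them, which does not show a lack of response. Under each setting limma called 0 of all the genes fitted for induction. Between the lines it called 2 to 4 of the members over the settings, CD9 counted although no test of it is read; leaving out 1 array gave 2 to 3. The fits with 1 array left out leave treatment out, and a line left with 1 array is assumed to vary like the other. The fit of all 4 arrays in that form called 7193 genes, and fewer were called with 1 array less. CD82 was called at the 75th percentile cutoff and without the induced SUM159 array (limma adjusted p = 0.0458 and 0.0484). The number of arrays limits the precision of every value.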
